A study of Homo sapiens with 4 samples.

Results

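The laminin and basement membrane collagen genes LAMA3, LAMB3, LAMA5, LAMB1, LAMC1, COL17A1, COL7A1, COL4A1 and COL4A2 were followed through the series. They were chosen by name, and all 9 symbols were found, each in 1 of the 17064 rows of the deposited table. The RNA came from KYSE-150 cells, grown from a human squamous cell carcinoma of the esophagus and long in use as a cell line. Control cells had normal expression of the RNA methyltransferase NSUN6, and the cells compared with them carried a stable short hairpin RNA against it. Whether the hairpin cells were 1 clone or a pool is not given in the sources used here. All cells received cycloheximide at 100 µg/ml, which holds ribosomes on their messages. Input RNA was taken from 10% of each lysate. RNA bound to polyribosomes was pelleted from the remainder through 30% sucrose. This gave 4 libraries with 1 library per group, an input and a polyribosome library from each kind of cell. No difference below has a replicate check, no p-value was computed, and the read depth is unknown.

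The labels were checked first on NSUN6, whose input level was 8.85 FPKM in the control cells and 3.83 FPKM, 43.3% of that, in the knockdown cells. On polyribosomes it stood at 10.1 and 0.38 FPKM, 3.75% of control. Of all genes averaging at least 5 FPKM, 14.4% were at least 2-fold lower in input and 32.9% on polyribosomes. A second line of column names inside the table assigns the knockdown columns to K30 cells with a hairpin against Mettl1 and lists input before polyribosome RNA, where the header has them the other way round. The header, which matches the sample labels, was followed, and the cells are called knockdown-labelled. Line and hairpin therefore cannot be told apart here. FPKM values are scaled to the length of the message and the size of the library, so levels can be set side by side between genes. Squamous and glandular epithelial markers differed between the cells, but not all in 1 direction. In input, 3 of 9 genes of the squamous list averaging at least 5 FPKM were at least 2-fold higher (SOX2, EPCAM and CDH1). Of these, EPCAM and CDH1 are not particular to squamous cells. The 4 lower ones were KRT5, KRT14, KRT17 and PKP1. Of 6 glandular markers averaging at least 5 FPKM, 3 were higher (KRT19, KRT7 and AGR2) and 1 lower (MUC1). KRT5 stood at 906 and 1162 FPKM in the control libraries and at 0.45 and 0.70 FPKM in the knockdown-labelled ones. KRT19 stood at 0.07 and 1.02 FPKM against 1488 and 1973 FPKM. All 10 genes of the squamous list summed to 1417 and 1777 FPKM in control cells, and to 345 and 106 FPKM in the others. EPCAM made up 66.4 and 76.6 FPKM of the control sums and 186 and 28.05 FPKM of the others. The 8 glandular ones summed to 3137 and 4211 FPKM, and to 6342 and 7194 FPKM. Their part in the results below was not tested.

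The basement membrane is the thin sheet of matrix on which epithelial cells sit. Laminins are trimers of an alpha, a beta and a gamma chain, and the trimer assembles inside the cell before secretion, so the chains need one another. Laminin-332, which holds the LAMA3 and LAMB3 chains, is the anchoring laminin of stratified epithelia such as the esophagus, and it binds the integrin of the hemidesmosome. Laminin-511, made of LAMA5, LAMB1 and LAMC1, is widespread in basement membranes. COL4A1 and COL4A2 form the collagen IV network, COL17A1 is a transmembrane collagen of the hemidesmosome, and COL7A1 forms the anchoring fibrils that tie the sheet to the tissue beneath.

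Collagens and laminins differ in what ribosomes have to read, and the coding sequence in the middle of the 4 collagens is shown for that reason. Each line gives 30 codons from the middle of the longest coding sequence of the gene in GENCODE 29, with glycine codons in capitals.
COL4A1: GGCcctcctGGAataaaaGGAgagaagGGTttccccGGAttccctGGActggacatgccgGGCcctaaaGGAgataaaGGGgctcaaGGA
COL4A2: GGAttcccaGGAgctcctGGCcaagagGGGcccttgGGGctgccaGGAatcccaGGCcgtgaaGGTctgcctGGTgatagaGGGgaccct
COL7A1: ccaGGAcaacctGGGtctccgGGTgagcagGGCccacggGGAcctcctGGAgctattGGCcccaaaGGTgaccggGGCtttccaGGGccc
COL17A1: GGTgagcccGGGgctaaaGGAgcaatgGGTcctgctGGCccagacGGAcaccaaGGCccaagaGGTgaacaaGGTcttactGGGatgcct
Each stretch held 10 glycine codons of 30, the repeat that lets collagen chains wind into a triple helix. Over the whole coding sequence glycine took 28.6% of codons in COL4A1, 27.6% in COL4A2, 21.3% in COL7A1 and 18.8% in COL17A1. In the 5 laminin chains it took between 6.91% in LAMB1 and 9.39% in LAMA5. LAMB3 and LAMC1 lie on chromosome 1, COL7A1 on 3, LAMB1 on 7, COL17A1 on 10, LAMA3 on 18 and LAMA5 on 20, and the collagen IV genes lie on 13. All 9 messages are long, from 4305 bases for LAMB3 to 11426 bases for LAMA5, against a median of 2577 bases for 7158 matched genes whose FPKM averaged at least 5 over the libraries.

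Since the series measured the loading of messages on ribosomes, the start codons of the 9 genes are shown as well. The start codon is in capitals, with 9 bases before it and 9 after it, from the same transcripts.
LAMA3: cgcggctggATGgcggcggcc
LAMB3: tggctgaagATGagaccattc
LAMA5: gccgggaagATGgcgaagcgg
LAMB1: ttcttccgaATGgactgtcct
LAMC1: ggcggcgggATGagagggagc
COL17A1: ggctatggtATGgatgtaacc
COL7A1: ctgcctaggATGacgctgcgg
COL4A1: cgcgccaccATGgggccccgg
COL4A2: accgccagcATGgggagagac
A purine 3 bases before the start codon and a G directly after it favour initiation. A purine stood at that place in 7 of 9 genes, against 85.4% of 6859 genes averaging at least 5 FPKM. A G followed in 6 of 9, against 54.0%, and 4 of 9 had both, against 46.7%. In these transcripts LAMA3 and LAMB1 lacked the purine. The LAMA3 bases are those of its longest form, whereas the LAMA3 promoter described below belongs to a start far inside the gene. Which form these cells used, and the start codon of the shorter form, were not tested. The counts therefore hold for the transcripts shown.

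LAMB3 was the highest of the 9 genes in every library. It stood at 29.3 FPKM in control input, 29.8 in control polyribosome, 48.4 in knockdown-labelled input and 54.9 in knockdown-labelled polyribosome RNA. COL17A1 came next in all 4 libraries, at 21.6, 21.5, 37.2 and 21.6 FPKM in the same order. LAMC1 followed in both control libraries (8.29 and 7.60 FPKM), and LAMA5 followed in both knockdown-labelled libraries (12.9 and 18.5 FPKM). The lowest place was held by COL4A1 in control, at 0.93 and 0.71 FPKM, and by COL7A1 in knockdown-labelled cells, at 0.06 and 0.13 FPKM. All 9 genes were above 0 in all libraries, and 5 of 9 averaged at least 5 FPKM, namely LAMB3, COL17A1, LAMA5, LAMC1 and COL4A2. Together the 9 genes took between 0.0132% and 0.0235% of the FPKM of a library. With 1 library per group, the spread that would separate neighbours in this order is not known.

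**Figure D1:**
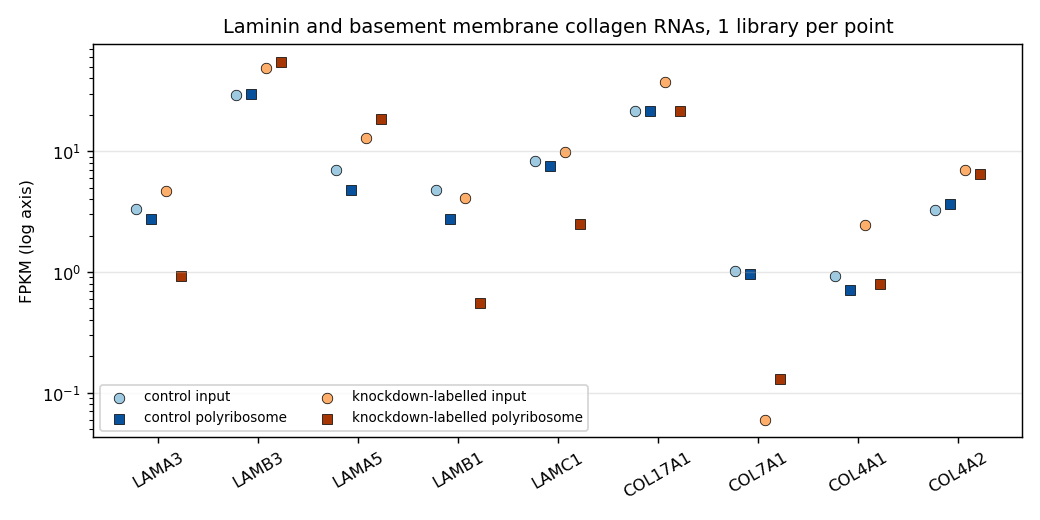
FPKM (log axis) of the 9 genes in the 4 libraries, each point 1 library, circles for input and squares for polyribosome RNA. LAMB3 and COL17A1 are the highest in every library, and COL7A1 drops from about 1 FPKM in both control libraries to 0.06 and 0.13 FPKM in the knockdown-labelled ones.

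LAMA3 and LAMB3, which meet in laminin-332, were not at equal levels. Per length, LAMB3 was 8.77 times as high as LAMA3 in control input and 10.9 times on control polyribosomes. In knockdown-labelled cells the ratio was 10.3 in input and 59.6 on polyribosomes. LAMA3 was thus the lower chain of the pair in all 4 libraries. For laminin-511, LAMA5 was 1.46 times LAMB1 in control input, 1.75 times on control polyribosomes, 3.17 times in knockdown-labelled input and 33.7 times on knockdown-labelled polyribosomes. LAMA3 is transcribed from more than 1 start, and the length by which the authors scaled its FPKM is not known. The longest form, used elsewhere here for its length and GC content, does not enter these ratios and may not be the one the authors used.

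The comparison of input RNA asked how the messages differed between the cells before any selection for ribosomes. Changes are differences of log2(FPKM + 1), knockdown-labelled minus control, which understate the change of low genes. Of the 9 genes, 7 were higher and 2 were lower, and the range was -0.93 to 0.91. At the threshold of 2-fold, 0 of 9 were higher (background 13.2% of the 7379 genes averaging at least 5 FPKM) and 0 of 9 were lower (background 14.4%). Because 4 of the 9 genes are below that mean, the same share is also given for the 11640 genes averaging at least 0.5 FPKM, which include all 9. It was 13.5% higher and 14.4% lower for input. The median of the 9 genes was 0.71, and the median of the 7379 genes was 0.01. In bulk RNA, fewer cells with a message and less of it per cell cannot be told apart.

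Among laminins, LAMA5 differed by 0.79 in input, from 7.04 to 12.9 FPKM, and LAMB3 by 0.71, from 29.3 to 48.4 FPKM. LAMA3 stood at 3.34 and 4.72 FPKM, a difference of 0.40, and LAMC1 at 8.29 and 9.76 FPKM, a difference of 0.21. LAMB1 stood at 4.81 and 4.08 FPKM, a difference of -0.19. So the alpha chain of laminin-511 was further apart than its beta and gamma chains. The collagen IV genes were both higher, COL4A1 from 0.93 to 2.44 FPKM (0.83) and COL4A2 from 3.25 to 6.99 FPKM (0.91). As plain ratios of FPKM these were 2.62 and 2.15 times, so both passed 2-fold with 0.1 in place of 1 FPKM added. COL17A1 differed by 0.76. COL7A1 stood at 1.02 and 0.06 FPKM, 5.88% of control and a difference of -0.93. At 9276 bases, that lowest value corresponds to 0.557 fragments in 1000000 mapped, so it rests on few reads. With the knockdown-labelled columns exchanged, the input difference turned to -1.18 for LAMA3, -1.42 for LAMC1 and -0.10 for COL4A1. LAMB1 was then at -1.91 and LAMA5 at 1.28.

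COL4A1 and COL4A2 lie head to head on chromosome 13, and their listed starts in RefSeq (GRCh38.p14) are 126 bases apart. The stretch between them is 80.2% G and C. The sequence around its CCAAT box, the site of a common promoter factor, is shown because these genes share it; the box is in capitals, on the plus strand at chr13:110307169-110307193.
COL4A1 and COL4A2: gccgagctccCCAATttgttggcgc
CCAAT on either strand was found in the 250 bases before a listed start for 4 of 9 genes, and in 32.0% of 35116 promoters. COL4A1 and COL4A2 both count through the shared box. Here and below a gene counts with a match before any of its listed starts, while the 35116 promoters count singly, so the shares are not quite alike. The GC box GGGCGG, on either strand, was found for 8 of 9, against 42.6%, and TATAAA for 2 of 9, against 10.7%. The letters TGANTCA, the site of the AP-1 factors JUN and FOS, were found for LAMA3 and LAMB3, against 6.57% of promoters. LAMB3 has several listed starts, of which 1 showed the match. The matches of these partner chains are shown with 10 bases on each side, 5′ to 3′ in the direction of the gene, with the matching letters in capitals.
LAMA3, chr18:23872885-23872911, plus strand: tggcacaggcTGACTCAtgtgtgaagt
LAMA3, chr18:23872941-23872967, plus strand: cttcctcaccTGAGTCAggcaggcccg
LAMB3, chr1:209651425-209651451, minus strand: tcagccactcTGACTCAttcactttgg
The first LAMA3 match begins 125 bases and the second 69 bases before a start that lies 184 kb inside the longest annotated gene. The LAMB3 match begins 67 bases before its listed start. A match describes the letters and does not show that a factor was bound.

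The comparison of polyribosome RNA split the same genes apart. LAMA5 stood at 4.79 FPKM on control and 18.5 FPKM on knockdown-labelled polyribosomes, a log2 difference of 1.75 and the highest of the 9. LAMB3 was at 29.8 and 54.9 FPKM (0.86), and COL4A2 at 3.66 and 6.43 FPKM (0.67). LAMC1 was at 7.60 and 2.48 FPKM, a difference of -1.31, and LAMB1 at 2.73 and 0.55 FPKM, a difference of -1.27. LAMA3 was at 2.72 and 0.92 FPKM, 33.8% of control and a difference of -0.95. COL17A1 stood at 21.53 and 21.59 FPKM, COL4A1 at 0.71 and 0.80 FPKM, and COL7A1 at 0.96 and 0.13 FPKM (-0.79).

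Within laminin-511, the alpha chain was thus higher on knockdown-labelled polyribosomes and both partner chains were lower. Of the laminin-332 chains, LAMB3 was higher and LAMA3 lower. At 2-fold, 1 of 9 was higher, LAMA5 (background 16.7%, or 15.0% from 0.5 FPKM on), and 2 of 9 were lower, LAMB1 and LAMC1 (background 32.9%, or 32.7%). The median of the 9 genes was 0.00 and that of the 7379 genes -0.28. In 2 of 9, LAMA3 and LAMC1, input was higher and polyribosome RNA lower, against 22.1% of the 7379 and 22.3% of the 11640 genes. Centred on that shift, LAMB3 also passed 2-fold (1.14) and LAMB1 no longer did (-0.99). With the knockdown-labelled columns exchanged, LAMB1 was at 0.45, LAMC1 at 0.32 and LAMA3 at 0.62, so all 3 turned to higher, while LAMA5 was at 1.27. With GC content and transcript length removed, none of these calls stayed, with LAMA5 at 0.40, LAMB1 at -0.95 and LAMC1 at -0.88. COL7A1, at -1.99, was then the 1 of 9 lower and 0 of 9 were higher (backgrounds 26.4% and 10.4% of 7158 genes). COL7A1 averaged 0.54 FPKM and was placed on a trend fitted to genes averaging at least 5 FPKM, so this call rests on the trend. With 5 FPKM added in place of 1, 0 of 9 were lower.

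**Figure D2:**
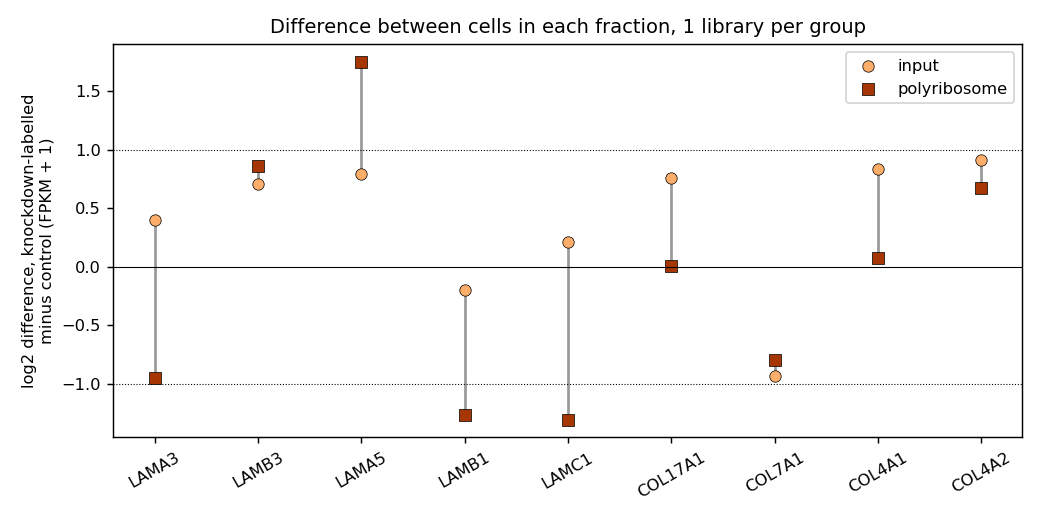
Difference in log2(FPKM + 1), knockdown-labelled minus control, in input (circles) and polyribosome RNA (squares), joined for each gene; dotted lines mark 2-fold. LAMA3 and LAMC1 lie above 0 in input and below 0 on polyribosomes, LAMA5 reaches 1.75 on polyribosomes, and COL7A1 lies below 0 in both.

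A comparison that does not depend on the order of the knockdown-labelled columns sets both libraries of one cell population against both of the other. The fractions come from the same cells and are not replicates. In 4 of 9 genes both knockdown-labelled values were above both control values (background 26.1% of 7379 genes and 24.1% of the 11640). These were LAMB3 at 48.4 to 54.9 against 29.3 to 29.8 FPKM, LAMA5 at 12.9 to 18.5 against 4.79 to 7.04 FPKM, COL4A2 at 6.43 to 6.99 against 3.25 to 3.66 FPKM, and COL17A1. For COL17A1 the gap was from 21.55 to 21.59 FPKM, too small to read. In 1 of 9, COL7A1, both knockdown-labelled values (0.06 and 0.13 FPKM) were below both control values (0.96 and 1.02 FPKM), against a background of 31.3% and 32.5%. LAMA3, LAMB1, LAMC1 and COL4A1 overlapped, so no order of the cells can be given for them over both fractions.

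Translation efficiency was the difference of log2(FPKM + 1), polyribosome minus input RNA of the same cells. In control cells all 9 genes stayed within 2-fold. At that threshold 0 of 9 were higher (background 0.00% of the 7379 and 0.0344% of the 11640 genes) and 0 of 9 lower (background 0.759% and 1.14%). LAMB1 had the lowest efficiency, -0.64, with 4.81 FPKM in input and 2.73 FPKM on polyribosomes, at percentile 3.10 of the 7379 genes. LAMA5 was at -0.47, at percentile 6.41, LAMA3 at -0.22 and COL4A1 at -0.17. COL4A2 had the highest, 0.13, and LAMB3 and COL17A1 were at 0.02 and 0.00. Their median was -0.11, against 0.03 for all genes. The alpha chains and LAMB1 were therefore the less loaded laminin messages in control cells, each without replicates.

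In knockdown-labelled cells the efficiencies spread out. LAMB1 was at -1.71, with polyribosome FPKM at 13.5% of input, LAMC1 at -1.63 (25.4%) and LAMA3 at -1.57 (19.5%). COL4A1 was at -0.93 and COL17A1 at -0.76, and COL4A2 was near 0 at -0.10. COL7A1 was at 0.09, LAMB3 at 0.18 and LAMA5 at 0.49, with polyribosome FPKM at 143% of input. At 2-fold, 3 of 9 were lower (background 28.8% and 31.6%) and 0 of 9 were higher (background 8.62% and 6.09%), so the share of lower genes was near that of all genes. With 5 FPKM added, 0 of 9 were lower.

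The order of the 9 efficiencies in knockdown-labelled cells was close to that of the transcripts' GC content. The 3 lowest genes had the lowest GC content, LAMC1 at 48.7%, LAMB1 at 49.5% and LAMA3 at 50.7%. COL4A1 and COL17A1, next in efficiency, were at 55.4% and 55.9%. LAMB3 was at 58.9%, COL4A2 at 62.0%, COL7A1 at 64.8% and LAMA5, the most loaded, at 66.4%. Over the 9 genes Pearson's r between efficiency and GC content was 0.96 and Spearman's rho 0.93 in knockdown-labelled cells, against 0.24 and 0.32 in control cells. Genes share the libraries and are not independent replicates. Across 7158 genes r was 0.80 in knockdown-labelled and 0.06 in control cells. These are descriptions of 1 pair of libraries each.

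**Figure D3:**
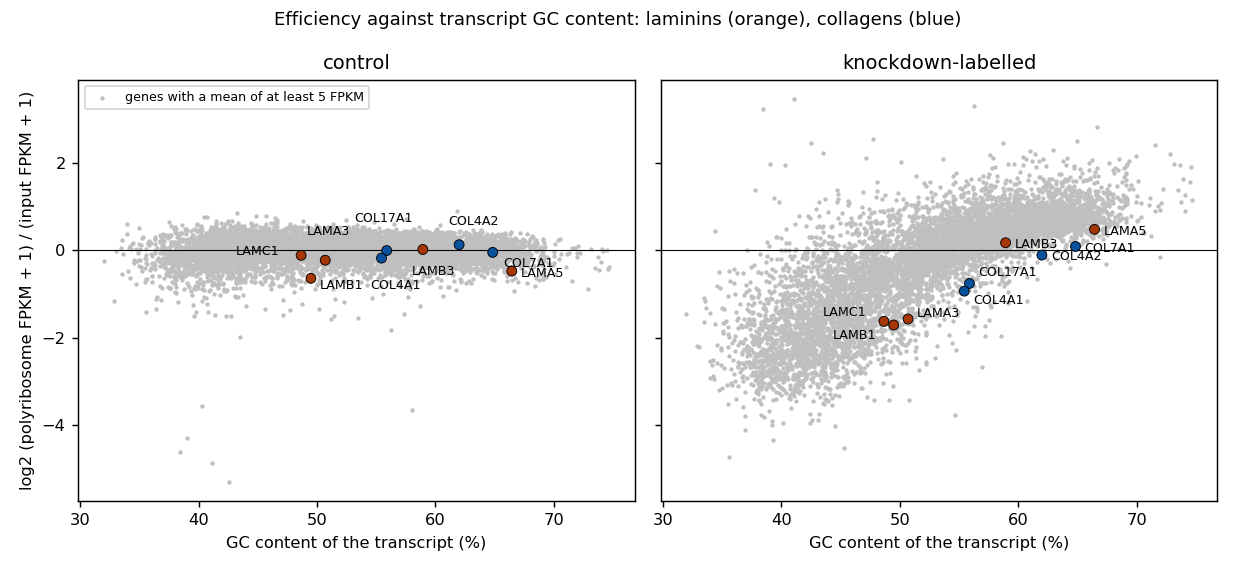
Efficiency, log2(FPKM + 1) on polyribosomes minus that in input, against the GC content of the transcript in control (left) and knockdown-labelled cells (right); grey points are the 7158 matched genes, orange points laminins and blue points collagens. In control cells the points lie flat, and in knockdown-labelled cells they climb with GC content, with LAMC1, LAMB1 and LAMA3 at the low end and LAMA5 at the high end.

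The efficiency comparison, for which the series was designed, subtracts the control from the knockdown-labelled efficiency. LAMC1 was at -1.52, LAMA3 at -1.35 and LAMB1 at -1.07, so 3 of 9 were at least 2-fold lower (background 30.1% and 28.6%). With 5 FPKM added, the authors' constant, 0 of 9 were lower, with LAMC1 at -0.90, LAMA3 at -0.60 and LAMB1 at -0.37. LAMA5, at 0.96, came closest to 2-fold higher, which 0 of 9 reached (background 12.0% and 9.05%). Centred on the median of all genes, LAMA5 passed it (1.08) and LAMB1 no longer passed (-0.95). COL4A1 and COL17A1 were both at -0.76, COL4A2 at -0.24, COL7A1 at 0.14 and LAMB3 at 0.15. The median was -0.76, against -0.12 for all genes. In the authors' deposited table, whose ratios carry an added constant of 5 FPKM, LAMA5 stood at 0.813 in control and 1.31 in knockdown cells. LAMC1 stood there at 0.948 and 0.507, and LAMA3 at 0.926 and 0.609.

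With a trend on GC content and transcript length removed across genes, the spread among the 9 genes narrowed and all 9 lay below 0. LAMB3 was then at -0.53, LAMA5 at -0.58, LAMB1 at -0.74, COL4A1 at -1.11, LAMC1 at -1.13, COL17A1 at -1.14, COL7A1 at -1.20, COL4A2 at -1.25 and LAMA3 at -1.28. At 2-fold, 6 of 9 were lower and 0 of 9 higher, against backgrounds of 18.1% and 5.34% of 7158 genes under the same removal. All 4 collagens were among the 6, with LAMA3 and LAMC1. Of these, LAMA3, COL4A1 and COL7A1 averaged 2.9, 1.22 and 0.54 FPKM, under the mean of 5 FPKM that the background genes reach. No share under this removal was computed from 0.5 FPKM on. COL7A1 was at 0.14 before the removal, so its call here and in the next count rests on the trend. LAMC3, at 0.03 FPKM or less, likewise moved from 0.04 to -1.17. In knockdown-labelled efficiency alone, 7 of 9 were then lower and 0 of 9 higher (backgrounds 14.9% and 3.23%). Of all genes, 71.8% lay below 0 after the removal and their median was -0.41, so a negative sign alone does not set these genes apart. Nor does the size, as the median of the 9 genes was -1.13. Among lists of other genes it was -1.37 for squamous markers, -1.12 for glandular markers and -1.10 for hemidesmosome plaque and anchorage. It was -0.80 for receptors, -0.71 for linkers and proteoglycans, -0.66 for regulators, -0.59 for collagen modification and -0.44 for matrix proteases. The 4 genes averaging under 5 FPKM were placed on a trend fitted without them, and LAMA3 and LAMA5 lie at the 99.0th and 99.2nd percentile of length. With the knockdown-labelled columns exchanged instead, LAMB1 was at 2.35, LAMA3 at 1.80 and LAMC1 at 1.74, and LAMA5 at -0.01. Then 4 of 9 were at least 2-fold higher and 0 of 9 lower (backgrounds 27.8% and 6.29%). With the exchange and the removal together, 7 of 9 were higher and 0 of 9 lower (backgrounds 15.1% and 2.72%). The sign of these efficiencies thus rests on which knockdown-labelled column is the input.

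**Figure D4:**
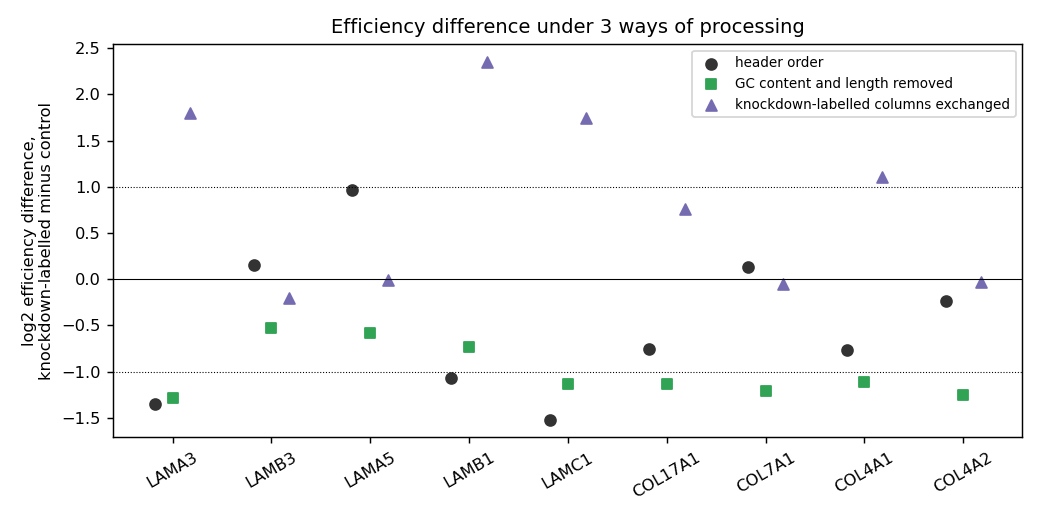
Efficiency difference, knockdown-labelled minus control, on the log2 scale for each gene with the header's column order (circles), after removal of GC content and length (squares) and with the knockdown-labelled columns exchanged (triangles). The squares lie between -1.28 and -0.53, and LAMA3, LAMB1 and LAMC1 move from over 2-fold lower (circles) to over 2-fold higher (triangles).

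Other genes of the basement membrane were described from lists, and counts refer to members averaging at least 5 FPKM. They stand against the shares of all genes given above, 13.2% higher and 14.4% lower in input and 16.7% higher and 32.9% lower on polyribosomes, and against medians of 0.01 and -0.28. These shares hold for the header's column order. With the columns exchanged no such shares were computed, so the exchanged counts below show only how the calls move. Of the other laminin chains described, 0 of 6 passed that filter. LAMA1, LAMA2, LAMA4, LAMB4 and LAMC3 were under 1 FPKM in all libraries, and LAMB2 stayed at 4.47 to 5.64 FPKM. Of 9 other collagens, COL18A1, the precursor of endostatin, passed the filter. It was at 4.93 and 5.77 FPKM in control cells against 18.8 and 24.7 FPKM in knockdown-labelled cells, input first, at least 2-fold higher in both fractions.

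Linkers and proteoglycans of the sheet showed 3 of 5 at least 2-fold higher in input and 3 of 5 on polyribosomes, with 0 lower in either (medians 1.06 and 1.45). With the columns exchanged, 1 was lower in input. The heparan sulfate proteoglycan AGRN was at 14.7 and 13.3 FPKM in control cells against 33.3 and 48.7 FPKM in knockdown-labelled cells. EFEMP1, a fibulin, was at 0.00 and 0.06 FPKM against 58.0 and 9.23 FPKM. TINAGL1, a matricellular protein that binds laminin, was at 115 and 124 FPKM against 241 and 340 FPKM. Nidogen 1 (NID1), which links laminin to collagen IV, was under 1 FPKM throughout, and perlecan (HSPG2) was at 0.83 to 1.11 FPKM in control cells against 2.42 to 3.02 FPKM in knockdown-labelled cells. Of the 5 that passed the filter, 4 had both knockdown-labelled values above both control values (AGRN, TINAGL1, EFEMP1 and FBLN1), against 26.1% of all genes, and NTN4 overlapped.

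Of 11 receptors for laminin and collagen, 4 were at least 2-fold higher and 2 lower in input, and 3 higher and 4 lower on polyribosomes (medians 0.37 and 0.19). Exchanged columns gave 3 higher and 4 lower in input, and 3 higher and 2 lower on polyribosomes. The partners of the integrin that binds laminin-332 in hemidesmosomes went apart on polyribosomes. ITGB4 was at 41.9 and 43.1 FPKM in control cells against 91.3 and 116 FPKM in knockdown-labelled cells. ITGA6, with a GC content of 44.7% against 63.7% for ITGB4, was at 10.2 and 6.37 FPKM in control cells against 28.5 FPKM in knockdown-labelled input and 2.34 FPKM on polyribosomes. ITGA3, the alpha chain of the other laminin-332 integrin, was at 60.8 to 63.8 FPKM in control cells against 101 to 156 FPKM in knockdown-labelled cells. Its partner ITGB1 was at 26.7 to 30.4 FPKM in control cells against 39.7 FPKM in knockdown-labelled input and 3.89 FPKM on polyribosomes. BCAM, a receptor of the LAMA5 chain, was at 104 to 105 FPKM in control cells against 30.8 to 46.7 FPKM in knockdown-labelled cells.

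Of 7 genes listed for the hemidesmosome plaque and anchorage, COL17A1 apart, 2 were at least 2-fold higher and 2 lower in input. The list holds the keratins KRT5 and KRT14 and FERMT1, which are not plaque proteins. The 2 lower ones were the keratins. On polyribosomes 2 were higher, ITGB4 and PLEC, and 4 lower, KRT5, KRT14, FERMT1 and ITGA6. The medians were 0.52 and -1.14. With columns exchanged these were 2 higher and 4 lower in input, and 2 higher and 2 lower on polyribosomes. The cross-linker PLEC was at 7.31 and 7.89 FPKM in control cells against 11.9 and 19.8 FPKM in knockdown-labelled cells. Of 16 genes for collagen modification, folding and export, 4 were at least 2-fold higher and 3 lower in input, and 2 higher and 5 lower on polyribosomes (medians 0.34 and 0.25). Exchanged columns gave 5 higher and 5 lower in input, and 3 higher and 3 lower on polyribosomes. Prolyl hydroxylation needs P4HB together with an alpha subunit. P4HB was at 196 and 237 FPKM in control cells against 444 and 478 FPKM in knockdown-labelled cells, and P4HA2 at 8.95 and 11.1 FPKM against 28.0 and 22.7 FPKM. P4HA1 was at 6.42 and 6.74 FPKM in control cells against 10.7 FPKM in knockdown-labelled input and 1.13 FPKM on polyribosomes. The lysyl hydroxylase PLOD1 was at 19.9 and 22.4 FPKM against 60.7 and 74.4 FPKM, and SERPINH1, the collagen chaperone HSP47, at 176 and 214 FPKM against 143 and 181 FPKM.

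Matrix proteases and inhibitors had 3 of 14 at least 2-fold higher and 3 lower in input, and 1 higher and 5 lower on polyribosomes (medians -0.11 and -0.79). With columns exchanged these were 1 higher and 5 lower in input, and 3 higher and 4 lower on polyribosomes. The inhibitor TIMP3 was at 1.43 and 1.85 FPKM in control cells against 34.2 and 22.9 FPKM in knockdown-labelled cells, and MMP14, a membrane-bound collagenase, at 43.7 and 52.7 FPKM against 23.3 and 24.2 FPKM. Of 13 regulators known for these genes, 1 was at least 2-fold higher and 2 lower in input, and 1 higher and 7 lower on polyribosomes (medians -0.18 and -1.40). With columns exchanged these were 0 higher and 7 lower in input, and 2 higher and 2 lower on polyribosomes. FOSL1, an AP-1 subunit, was at 238 and 249 FPKM in control cells against 58.0 and 85.9 FPKM in knockdown-labelled cells, whereas JUN was at 99.5 and 73.9 FPKM against 174 and 186 FPKM. TGFB1 was at 162 and 159 FPKM against 21.1 and 46.0 FPKM.

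**Figure D5:**
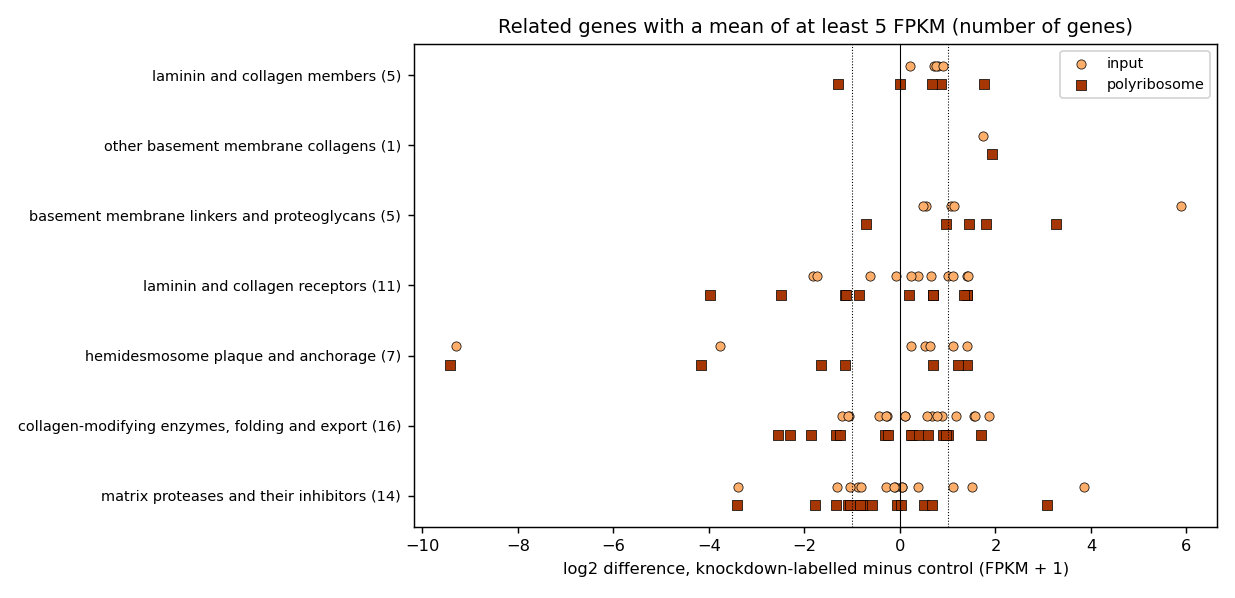
Difference in log2(FPKM + 1), knockdown-labelled minus control, for the genes of each list that average at least 5 FPKM, with input as circles and polyribosome RNA as squares; dotted lines mark 2-fold and the number of genes stands beside each list. The linkers and proteoglycans lie above 0 in input, and the receptors, hemidesmosome plaque and anchorage genes and collagen-modifying enzymes lie on both sides.

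Markers of cells that make much basement membrane in tissue were near 0. All 10 fibroblast markers were in the table and 9 of 10 were under 1 FPKM in all libraries, with COL1A1 at 0.70 to 2.58 FPKM, and the list summed to between 0.86 and 3.05 FPKM per library. All 8 endothelial markers were under 1 FPKM, with sums of 0.34 to 1.18 FPKM. The 9 immune markers in the table summed to 74.8 and 72.2 FPKM in control cells and to 11.5 and 13.01 FPKM in the others, of which CD68 made up 71.2 and 69.3 FPKM in control cells and 5.90 and 6.38 FPKM in the others.

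Likeness of pattern was measured as the root mean square difference of log2(FPKM + 1) over the 4 libraries after each gene's mean was subtracted. The nearest pairs were COL17A1 with COL4A1 (0.09), LAMB3 with COL4A2 (0.11) and LAMA3 with LAMC1 (0.14). Partner chains were near each other in 1 case, LAMB1 with LAMC1 (0.21). Others were further apart, at 0.36 for COL4A1 with COL4A2, 0.82 for LAMA3 with LAMB3 and 1.27 for LAMA5 with LAMB1. Around LAMA3, 4461 of 7366 genes lay nearer than LAMB3 did. The 3 genes nearest to the mean pattern of LAMA3 and LAMB3 were PIGX (0.03), YBX1 (0.03) and ZNFX1 (0.05). As LAMA3 and LAMB3 lay 0.82 apart, neither shows that mean pattern, and nearness to it does not make a gene like either chain.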

How the data were processed

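Input and polyribosome RNA were sequenced in 4 libraries, 1 per group, grouped by sample title. The authors deposited FPKM per gene symbol and, per gene, a ratio of polyribosome to input FPKM. Recomputing this ratio with 5 FPKM added to each value gave the deposited one within 5e-10. The submitters' processing notes name TopHat, hg19 and GRCh37. No source used here states the counter, annotation or filters. Values are rounded to 0.01 FPKM, so reads could not be recovered, the depth is unknown and no interval or floor was computed.

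Differences of log2(FPKM + 1) were computed for all rows (numpy 2.4.6, pandas 2.3.3). Genes averaging at least 5 FPKM (7379), or 0.5 FPKM (11640), formed the background, and genes at least 2-fold apart were counted, with no test. All 9 genes were described whether or not they passed that filter. GC content and length came from the GENCODE 29 transcript with the longest coding part, for 7158 of 7379 genes (97.0%). A quadratic trend on both was removed across genes, with the mean kept, in a step tested on simulated data. The simulated trend was linear, on GC content alone, and only genes averaging at least 5 FPKM were scored. The simulation therefore does not cover genes under that mean or a trend on length. Promoter sequences are RefSeq's (GRCh38.p14) and matched all 9 genes. The only positions given are of printed promoter sequences, chromosomes and distances between starts, all on GRCh38 and not on the authors' build.

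The genes and lists were chosen with earlier results of these data known. The 9 genes, NSUN6, any member of a list and the 3 genes nearest the mean pattern of LAMA3 and LAMB3 could be named, except 1 list gene that is not reported here. Alternatives were other added constants, filters, scaling, column order and sequence content. Shares of all genes were not computed under other added constants, scaling or centring. With the columns exchanged they were computed for the efficiency difference only.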

Additional observations from a re-analysis of the deposited data

Results flagged for a closer look

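Input and polyribosome differences between knockdown-labelled and control cells had opposite signs for 2 of the 9 genes, with 1 library per group. This pair of signs was held by 22.1% of 7379 genes, so the count is near the share of all genes and not particular to the 9. The opposition was not tested. For LAMA3 the input difference was 0.40 and the polyribosome difference -0.95, so the polyribosome difference was lower by a log2 value of -1.35. For LAMC1 the values were 0.21 and -1.31, a gap of -1.52. The transcripts of LAMA3 and LAMC1 had GC contents of 50.7% and 48.7%, and after removal of GC content and length the gaps were -1.28 and -1.13. With the knockdown-labelled columns exchanged both gaps turned round. LAMA3 was then at -1.18 in input and 0.62 on polyribosomes, a gap of 1.80, and LAMC1 at -1.42 and 0.32, a gap of 1.74.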

How the results depend on the processing

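No paired analysis was possible because each group has 1 library, and leaving out a library removes its group. With 0.1 FPKM added, 2 of 9 passed 2-fold upward and 1 downward in input, 4 lower on polyribosomes, and 1 higher in efficiency difference. With 5 FPKM added, 0 were lower in knockdown-labelled efficiency, 0 on polyribosomes and 0 in efficiency difference. Among the 5 genes averaging at least 5 FPKM, 1 was lower in knockdown-labelled efficiency (median -0.10), 1 on polyribosomes (median 0.67) and 1 in efficiency difference. With libraries rescaled to 1000000, 2 were higher and 1 lower in input, 4 lower on polyribosomes and 5 lower in efficiency difference. Centred on all genes, 2 were higher and 1 lower on polyribosomes, and 1 was higher in efficiency difference. The share of all genes passing was not computed for these added constants, the rescaling or the centring. Those counts therefore have no background and cannot be read as particular to these genes. With GC content and length removed, 7 were lower in knockdown-labelled efficiency, 0 higher and 1 lower (COL7A1) on polyribosomes, and 6 lower in efficiency difference. COL7A1, averaging under 1 FPKM, entered each of these counts of lower genes through the fitted trend. With the knockdown-labelled columns exchanged, 3 were higher and 0 lower in knockdown-labelled efficiency (median 0.76), 1 higher and 3 lower in input (median -0.10), 2 higher and 0 lower on polyribosomes (median 0.68), and 4 higher and 0 lower in efficiency difference (median 0.76). Knockdown-labelled efficiency was then 1.57 for LAMA3, 1.71 for LAMB1 and 1.63 for LAMC1. Polyribosome differences were 0.45 for LAMB1 and 0.32 for LAMC1. Efficiency differences were 1.80 for LAMA3, 2.35 for LAMB1 and 1.74 for LAMC1. With that exchange and the removal together, added after the data were seen, 7 were higher and 0 lower in efficiency difference (median 1.21; of all genes 15.1% were higher), with LAMA3 at 1.55, LAMB1 at 1.97 and LAMC1 at 1.21. Without COL7A1, the gene averaging under 1 FPKM, no count moved by over 1.5 times and no direction turned. The cause of these moves was not tested, and the unknown depth limits what can be said of COL7A1, COL4A1 and LAMB1.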
